A study of Rosa hybrid cultivar with 39 samples.

Results

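Petals of the cut rose 'Samantha' (a red hybrid tea cultivar) that had stood in brassinosteroid (BR) were compared with petals from stems in deionized water (H2O), gene by gene. Stems carrying flowers at opening stage 2 were held for 24 h in 5.0 µM BR, supplied as an epibrassinolide, or in deionized water, and RNA was taken from the outer petals. Both groups were the same cultivar, stage and petal layer, and differed in the solution. Each group had 3 labelled replicates, and the authors deposited 1 average per group, so the spread between replicates is not in these values and no difference below was tested. Of 30208 gene identifiers, 15308 reached 1 FPKM (a read density per transcript, scaled for transcript length and for the size of the library) in at least 1 of the 12 averages used, and 14050 did so in BR or H2O and were compared. The 10 other averages came from flowers treated for 24 h in other ways. Stems stood in GA3 (a gibberellin) or AgNO3 (silver nitrate) at 80 µM or in JA (jasmonic acid) at 50 µM. Used at 100 µM were SA (salicylic acid), ABA (abscisic acid), the auxins NAA and 2,4-D, and 6-BA (a cytokinin). Flowers were also held in 1-MCP (an ethylene inhibitor) at 2 µL/L or in air (ET-CK). These averages were used to show where the BR value stood. How the samples of a group were drawn into its average and how deep each library was cannot be read from the averages. The paper lists read numbers and RNA quality for each sample, and these were not used here.

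Brassinosteroids are plant steroid hormones known for promoting cell elongation. A receptor kinase at the cell surface binds the hormone, a glycogen synthase kinase-type inhibitor of the pathway is switched off, and a small family of transcription factors then enters the nucleus, activating growth genes such as those of cell wall loosening and repressing genes of brassinosteroid synthesis. The genes are listed by identifiers that the files used here do not pair with names, and so none of them could be assigned to these steps, and the petal tissue on the labels could not be checked against marker genes.

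BR and H2O averages were at least 2-fold apart at 2069 genes, or 14.7% of those compared. Of these, 1222 genes (8.70%) were higher in BR and 847 (6.03%) were lower. Ratios are given as log2 of BR over H2O after adding 1 to each FPKM, so that differences at low levels come out smaller than they were. The middle 90% of genes had ratios between -1.10 and 1.26, with a median of 0.09. Higher genes were the larger group at 2-fold and the smaller one at 8-fold. At 4-fold, 154 genes were higher and 146 lower in BR. At 8-fold, 19 were higher and 38 lower. The 2-fold limit cuts through a dense part of the distribution, since 239 higher genes had ratios from 1.0 to 1.1 and a further 278 genes from 0.9 to 1.0 stayed outside. On the lower side 152 genes were just inside and 187 just outside.

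**Figure D1:**
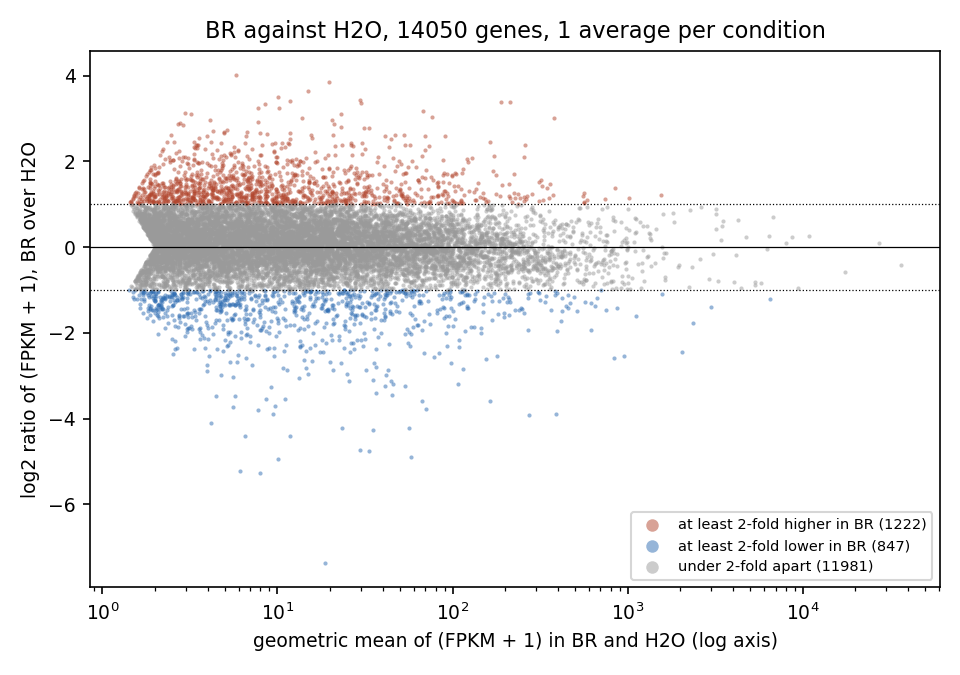
The log2 ratio of FPKM plus 1 in BR over H2O (vertical axis) is plotted against the geometric mean of both averages (horizontal log axis) for each of 14050 genes. Red points are the 1222 genes at least 2-fold higher in BR, blue points the 847 lower, and the longest tail, to -7.37, is on the lower side.

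The shares of both directions differed with the abundance of the genes. Among genes of 2 to 5 FPKM in the higher of the 2 averages, 9.80% stood 2-fold or more above H2O in BR and 5.39% below it, with a median ratio of 0.15. From 50 to 100 FPKM the shares were nearly equal, 8.16% and 7.85%. Above 500 FPKM they were reversed, with 21 of 283 genes (7.42%) higher and 36 (12.7%) lower, and a median ratio of -0.23. All FPKM together summed to 827234 in BR and 897264 in H2O. The 100 most abundant genes of H2O summed to 283542 in BR and 344801 in H2O, and 71 of them had the lower value in BR. A list chosen in H2O is tilted towards this direction, and of the 100 most abundant genes of BR 44 had the lower value in BR. The most abundant gene of both averages, LOC112199140, was at 31454 FPKM in BR and 42338 in H2O, which is less than 2-fold. The only gene of the 10 most abundant in H2O past 2-fold was LOC112195332, at 4266 in BR and 9820 in H2O. Few genes were near 0 in one average and expressed in the other. At under 0.1 FPKM in BR and at least 1 in H2O were 21 genes, and at under 0.1 in H2O and at least 1 in BR were 49 genes, none of which exceeded 8.41 FPKM in BR.

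The gene with the highest ratio, among genes of at least 10 FPKM in BR or H2O, was LOC112165277 (NC_037092.1, 33821429 to 33822916). It was at 22.2 FPKM in BR and 0.440 in H2O, a log2 ratio of 4.01, or 5.37 with 0.1 instead of 1 added to each FPKM. It was at 10.7 in JA, between 3.31 and 3.93 in GA3, SA and AgNO3, and between 0.174 and 1.79 in the 6 remaining treated or gas averages, so that BR held the highest of all 12 values. The second was LOC112188563 (NC_037089.1, 69002924 to 69004345), at 74.3 FPKM in BR and 4.20 in H2O, a log2 ratio of 3.85, or 4.11 and no longer the second highest with 0.1 added. Its nearest value elsewhere was 21.8 in JA and its lowest 1.26 in 1-MCP. Of the 15 genes with the highest ratios, 11 had their highest value in BR. JA was above H2O in 14 of the 15, and both gas averages were above it in 9. Choosing genes for low H2O values relative to BR tilts the other averages towards lying above H2O.

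The lowest ratio was that of LOC112201936 (NC_037092.1, 69056213 to 69101527), at 0.457 FPKM in BR and 240 in H2O, a log2 ratio of -7.37. The other solutions lay between 22.9 in JA and 169 in 6-BA, while the values nearest BR were those of flowers in gas, at 2.33 in 1-MCP and 0.672 in ET-CK. LOC112199856 (NC_037091.1, 49286866 to 49361273) came second, at 0.280 FPKM in BR and 48.4 in H2O, a log2 ratio of -5.27. It was at 1.42 in SA and 2.23 in 1-MCP but at 24.2 in JA and 56.6 in ET-CK. With 0.1 instead of 1 added to each FPKM, the ratio of LOC112201936 was -8.75 and that of LOC112199856 -7.00, which was then no longer the second lowest. Both loci are shared with other identifiers, 4 in all at the first and 8 at the second, and how reads were divided among them was not examined. Of the 15 genes with the lowest ratios, 9 had their lowest value in BR. Both gas averages were below H2O in 13 of the 15, and JA was below H2O in all 15. A choice for high H2O values tilts the other averages in this direction.

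**Figure D2:**
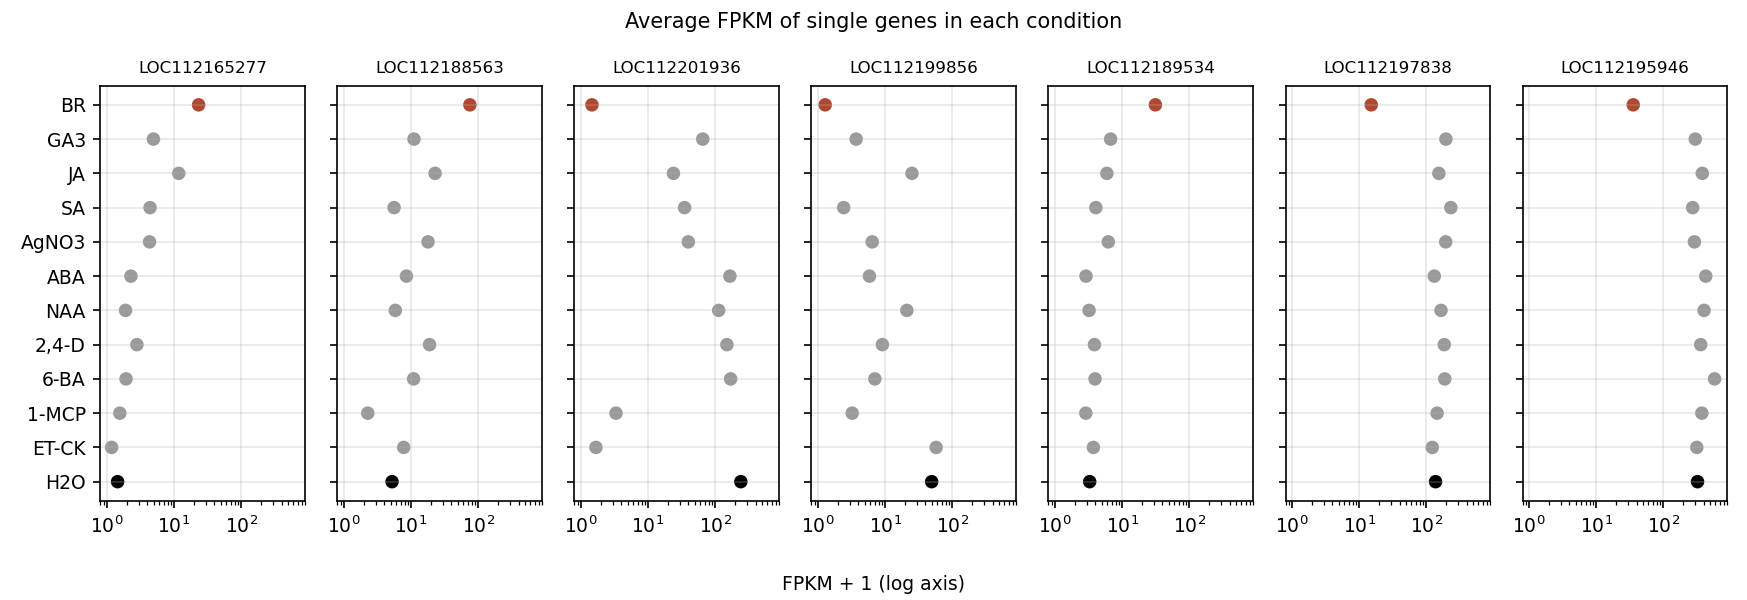
Average FPKM plus 1 (horizontal log axis) of 7 genes in each of the 12 conditions, with BR in red at the top and H2O in black at the bottom. LOC112201936 is low in BR and both gas conditions, whereas LOC112197838 and LOC112195946 are low in BR alone, at 14.2 and 34.8 FPKM.

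The positions of the genes were compared by direction, without a test. Among identifiers with a locus of their own, 110 of 664 lower genes (16.6%) had a directly neighbouring compared gene that was also lower, against 11.0% of all 11665 such genes. For higher genes the shares were 179 of 1030 (17.4%) against 16.6%. Over the 7 chromosome sequences, the share of genes higher in BR was between 8.24% and 9.33% and the share lower between 5.51% and 6.57%. A locus shared with another identifier was deposited for 15.7% of the higher genes, 21.6% of the lower genes and 17.0% of all compared genes.

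Of 8 stretches of neighbouring genes, all picked out after their values had been seen, 6 are described in full and the remaining 2 briefly. Low stretches joined genes at least 2-fold below all 11 other averages that lay within 100 kb of each other. High stretches joined genes at least 4-fold higher in BR than in H2O, at the same distance and regardless of the other averages. Those with most such genes of each kind were taken, and among pairs of such genes the first by chromosome position. The pair C below and the last stretch of each kind were taken in this way, and other pairs are not described. In all, 37 of 113 low genes and 28 of 154 high genes were within 100 kb of another of their list. To lessen the effect of how reads were divided within a locus, the FPKM of each stretch were summed over all genes compared. Since FPKM are scaled for transcript length, the sums can still depend on that division. The first low stretch (D) is the locus of LOC112199856, NC_037091.1:49286866-49361273, with 8 genes compared, of which 7 were at least 2-fold lower. Its sum was 105 in BR and 785 in H2O, and between 872 and 1231 in the 10 other averages. The log2 ratio of BR to H2O was -2.89 for the summed locus. That BR lay below all others follows from the choice, since 6 of the 8 genes were picked for it. The second (E) begins 149 kb downstream, NC_037091.1:49510052-49555401, and all 7 of its compared genes were at least 2-fold lower. Its sum was 506 in BR and 2742 in H2O, and GA3, at 1429, was the lowest of the others. Most of this came from 1 gene of 394 FPKM in BR and 2289 in H2O. Of 12 genes compared between both stretches, 1 was lower and 1 higher, with a median ratio of -0.11. The third (F), NC_037092.1:24640030-24650762, held 4 compared genes, 3 of them lower, and summed to 63.3 in BR and 220 in H2O, with up to 404 in 1-MCP. In the remaining low stretch, NC_037088.1:31040112-31220963, 3 of 5 compared genes were lower, and the sum was 28.0 in BR and 86.8 in H2O.

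Stretches of higher genes were picked out too, although the share of higher genes with a higher direct neighbour, 17.4%, was near the 16.6% of all genes. Stretch A, NC_037094.1:69728749-69932422, had 8 compared genes, 7 of them chosen for being at least 4-fold higher on the scale of FPKM plus 1. Of these 7, 2 are listed at 0 in H2O. Its sum was 2121 in BR and 270 in H2O, and JA was next with 1463. Stretch B, NC_037091.1:21904271-21976927, had 5 compared genes, all at least 2-fold higher, with sums of 231 in BR and 27.8 in H2O and at most 96.4 elsewhere, again in JA. The pair C, NC_037089.1:68993941-69004345, which holds LOC112188563, summed to 761 in BR and 69.6 in H2O, followed by 393 in JA. Most of this came from the other gene of the pair, at 687 FPKM in BR and 371 in JA. JA had the second highest sum in A, B and C, though in B ABA was close to it at 90.4. In SA the sums of A, B and C, at 255, 27.4 and 54.8, were below those of H2O. The remaining high stretch, NC_037090.1:6047139-6098865, differed from these, since 2 of its 5 compared genes were higher and the median ratio was -0.33. Its sum was 39.4 in BR and 24.9 in H2O, with 26.4 in JA and the highest value, 40.3, in ET-CK.

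**Figure D3:**
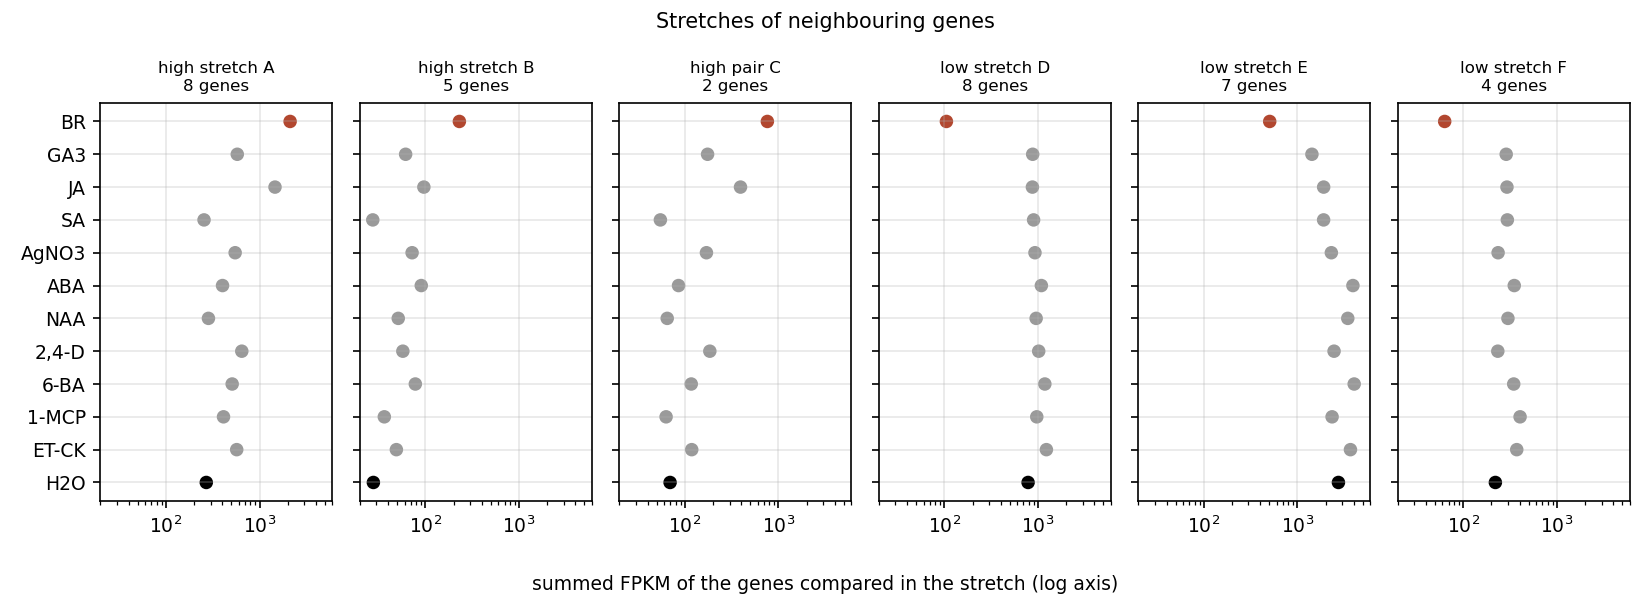
Summed FPKM (horizontal log axis) of the genes compared in 3 high stretches (A to C) and 3 low stretches (D to F) of neighbouring genes in each of the 12 conditions, BR in red and H2O in black. In D the BR sum is 105 and the others lie between 785 and 1231, and in A the JA sum is 1463 and the BR sum 2121. Low stretches were chosen from genes below all other averages and high ones from genes above H2O. The difference between D and A therefore follows in part from the choice.

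The BR average was set directly against each of the other averages to show which it resembled. These comparisons share the BR values, and each agent was used at a single dose, which differed between agents. Fewest genes were at least 2-fold apart from GA3, 677 (4.83%), and from JA, 748 (5.35%), followed by SA with 1020 (7.16%), AgNO3 with 1164 (8.17%), 2,4-D with 1279 (9.09%) and NAA with 1493 (10.5%). The counts against 1-MCP, 2051 genes (14.4%), and 6-BA, 2212 (15.6%), were close to the 2069 against H2O. BR was farther from ET-CK, with 2496 (17.4%), and farthest from ABA, with 3459 (24.2%). The direction changed with the distance. Against GA3, 150 genes were higher and 527 lower in BR, and against JA 171 and 577, so that the lower genes made up most of what set BR apart from its nearest averages. Against ABA, 1852 were higher and 1607 lower.

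**Figure D4:**
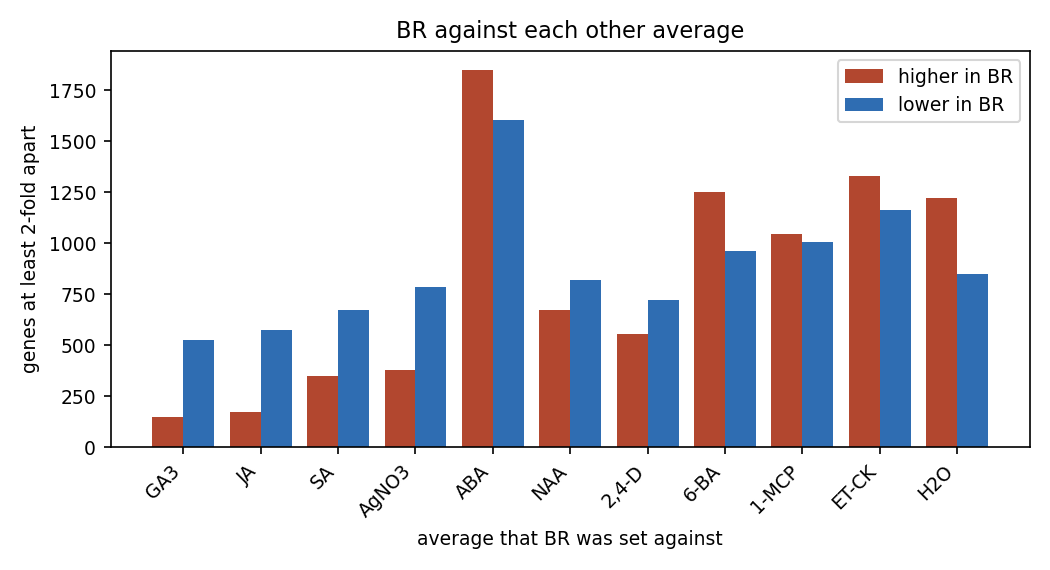
Number of genes at least 2-fold higher (red) and lower (blue) in BR than in each of the 11 other averages. Lower genes outnumber higher ones against GA3 (527 and 150) and JA (577 and 171), and the order is the other way against H2O (847 and 1222).

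In a stricter count, BR had to lie beyond all the others at once. BR was at least 2-fold above each of the 9 other averages in solution at 35 of 15023 genes (0.233%) and at least 2-fold below each of them at 175 (1.16%). By the same count ABA had 152 genes above and 68 below, JA 31 and 2, and each of the other 7 averages at most 11 in either direction. With the gas conditions included, BR stayed at least 2-fold above all 11 others at 29 of 15308 genes (0.189%) and below them at 113 (0.738%).

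LOC112189534 (NC_037089.1, 16808130 to 16809298) was the farthest above the other 11 averages, at 30.3 FPKM in BR and 2.29 in H2O, and between 1.88 and 5.74 in the others. LOC112188563, described above, came second. Farthest below were LOC112197838, at 14.2 FPKM in BR, 137 in H2O and 122 to 232 in the others, and LOC112195946, at 34.8 in BR, 323 in H2O and 274 to 582 in the others. Both belong to stretch D. The 113 low genes had a median of 5.04 FPKM in BR, and their median over the other 11 averages was 27.6. For the 29 genes above all others these medians were 25.1 and 4.83. The direction of both gaps follows from the choice of the genes. Of the 101 loci of the low genes, 20 (19.8%) lay within 100 kb of another. The 113 genes at least 2-fold above all others in ABA, a list of the same length, had 12 of 112 loci (10.7%) in such a position. Genes 4-fold lower than H2O in BR had 19.1% and genes 4-fold higher 14.2%. Genes above all others had 6.90% in BR and 0% in ET-CK, and genes below all others 0% in ABA and 6.25% in ET-CK. These lists differ in length, and the share over all genes was not counted.

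**Figure D5:**
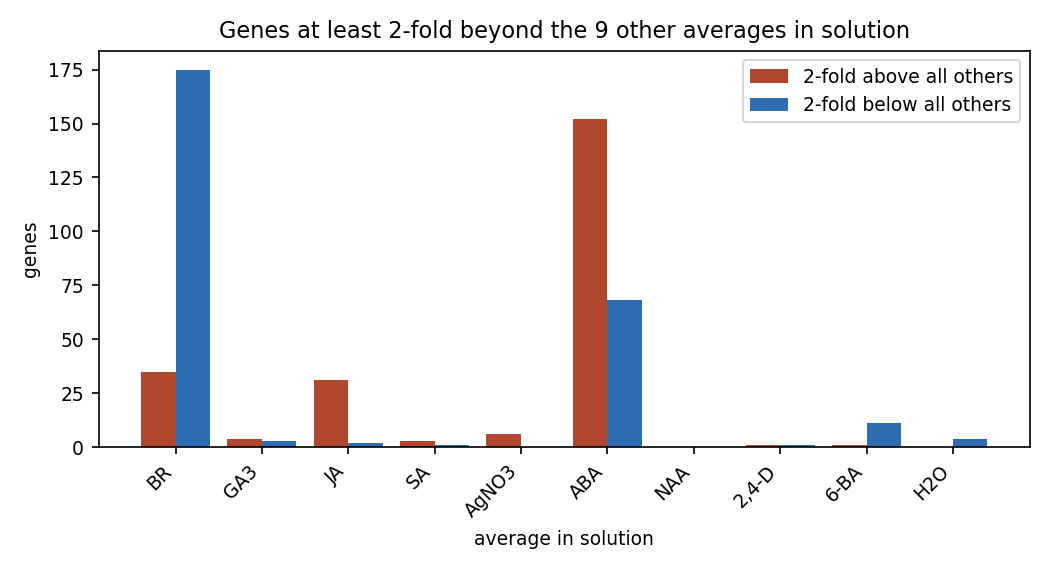
For each of the 10 averages in solution, the number of genes at least 2-fold above (red) or below (blue) all 9 others. BR has 35 above and 175 below, ABA 152 above and 68 below.

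The genes called against H2O were followed through the remaining averages by their median level. The genes were chosen for their BR and H2O values, so the medians of BR and H2O lie apart by choice, and the levels are given side by side only. The 1222 higher genes had a median of 11.3 FPKM in BR and 3.47 in H2O. Their medians were 9.64 in AgNO3, 9.61 in GA3, 9.33 in SA and 8.36 in JA, then 6.32 in ET-CK, 6.03 in 1-MCP, 5.76 in NAA and 5.52 in 2,4-D, and were nearest H2O in 6-BA, at 3.61, and ABA, at 2.94. The 847 lower genes had a median of 5.34 FPKM in BR and 19.9 in H2O. The next lowest medians were those of GA3 at 11.5 and JA at 11.8. ABA was the highest, at 26.3.

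1-MCP was set against flowers in air (ET-CK) instead of H2O, so that comparison has no average in common with BR against H2O. Of all 14095 genes compared there, 244 (1.73%) were at least 2-fold higher in 1-MCP and 173 (1.23%) lower. Of the genes higher in BR, 1158 could be compared, and 42 of them (3.63%) were higher and 51 (4.40%) lower in 1-MCP. These are 17.2% of the higher and 29.5% of the lower genes of 1-MCP. Of the genes lower in BR, 799 could be compared, and 36 (4.51%) were higher and 32 (4.01%) lower in 1-MCP, which are 14.8% and 18.5% of its lists. All 4 shares were above those of all genes, in both directions, and the median ratios of 1-MCP over ET-CK, 0.0044 and 0.04, were near the -0.01 of all genes. These shares were not tested.

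Sums over a gene can hide differences between its transcripts. Of 15428 transcripts compared, 1551 stood 2-fold or more above H2O in BR and 1072 below it. Of 1308 identifiers with 2 or more transcripts compared, 573 had a transcript past 2-fold, and in 420 of these the sum over the gene was not. In 62 identifiers (4.74%) transcripts were at least 2-fold apart in opposite directions. LOC112189169 (NC_037089.1, 18740672 to 18743746) was at 50.6 FPKM in BR and 75.8 in H2O in all. One of its transcripts was at 10.1 in BR and 47.2 in H2O, another at 14.3 in BR and 2.09 in H2O, and the remaining one was equal at 26.2 in BR and 26.5 in H2O. How fragments were assigned to overlapping transcripts was not examined, and some transcripts are listed at nearly 0 in 1 average.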

How the data were processed

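Per the labels, RNA of outer petals from 39 samples in 13 conditions was sequenced. The authors mapped reads to RchiOBHm-V2 with TopHat2, built transcripts in Cufflinks, joined these assemblies by Cuffmerge, computed FPKM with Cuffdiff and deposited 1 average FPKM for each of 38170 transcripts and each condition. The scaling between libraries and the way replicates were averaged are not given in the sources used here. The values deposited for ET equal those of ET-CK, so ET was not analysed here. Loci are given as deposited, and whether their starts count from 0 or 1 is not stated.

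For the 5094 identifiers with several transcripts, FPKM were added up. Genes with at least 1 FPKM in either average were compared by log2 ratios after adding 1, and called apart at 2-fold. The averages carry no depth, no counting error and no replicates, so no test was run. The counting code was checked on H2O values of well-expressed genes multiplied by known factors. Without noise or factors near the limit, this check does not bear on the reliability of the counts. The comparison, the stretches and the genes were chosen with earlier results of these data known. The rule for named genes took 15 per direction among genes of at least 10 FPKM; 2 per direction are printed in full, and 2 per direction beyond all other averages. LOC112199140, LOC112195332 and LOC112189169 were chosen after their values were seen. The 27 gene lists and promoter motifs planned need gene names or sequences and were not run. Alternatives were another pseudocount, filters, threshold, scalings and unsummed transcripts. Python 3.11.15, numpy 2.4.6, pandas 2.3.3 and matplotlib 3.10.9 were used.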

Additional observations from a re-analysis of the deposited data

How the results depend on the processing

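No paired analysis was possible because each condition was deposited as 1 average without replicate columns, and for the same reason no replicate could be left out. With a pseudocount of 0.1, 1879 genes were higher in BR than in H2O, and BR was 2-fold above the 9 other averages in solution at 59 genes and below them at 332. With the limit lowered to 0.5 on the log2 scale, 5956 genes were apart from H2O, 3528 higher and 2428 lower, and 228 lay above and 478 below the 9 others. Against all 11 others, 113 genes lay below. Median scaling gave 1062 genes higher and 955 lower in BR, and scaling to equal sums of FPKM gave 1511 and 714. All other counts of these comparisons stayed within 1.5 times under a minimum of 5 FPKM, no minimum, both scalings, unsummed transcripts, and without joined identifiers or those sharing a locus. Close to that limit, the 175 genes below the 9 others fell to 118 without identifiers that share a locus. Of the 113 genes below all 11 others, 37 shared a locus with another identifier, while 17.0% of all compared genes did. The 32 single genes checked stayed at least 2-fold apart in the same direction under the pseudocount and both scalings, although with the pseudocount of 0.1 only 23 of them moved by under 1.5-fold and the largest shift was 3.25 on the log2 scale, and the stretch sums moved by at most 0.12 on the log2 scale. Equal-sum scaling, leaving out shared loci and every alternative for the comparison with the other averages were chosen after seeing the data. Not run under other settings were the direct comparisons of BR with averages other than H2O, the abundance classes and the medians of the called genes. Nor were the counts beyond all others for averages other than BR, the chromosome shares, neighbours, nearby loci, 1-MCP and transcript pairs. What depth or replicate spread would take away cannot be read from averages.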
